A study of Mus musculus with 14 samples.

Results

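Lymph node RNA of Atm-/- mice (KO) was set against that of Atm+/+ mice (WT), both taken 120 min after ionizing radiation, to ask how the level of each transcript differed between the genotypes at the later of the 2 sampled times. The comparison rests on 4 of the 14 one-colour Affymetrix arrays of the study, 2 per genotype, chosen by their titles, and on every probe set other than the array's controls. The other 10 arrays are KO and WT at 30 min after radiation (2 each) and KO and WT without treatment (3 each), and they served as background and to estimate the spread. The radiation dose, the strain, age and sex of the mice and the kind of Atm mutation are not stated in the labels. All arrays are labelled as mouse lymph node, and all KO arrays carry the same genotype label. The labels number replicates A to C but do not say that they come from separate mice, so p-values here reflect the spread between samples that may be technical replicates only.

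Atm is a kinase that is switched on by DNA double-strand breaks. It stabilises p53, which turns on genes such as the cell cycle inhibitor Cdkn1a and the p53 ubiquitin ligase Mdm2. It also signals from the nucleus through the regulatory subunit of the IkB kinase complex (Ikbkg, NEMO), after which the inhibitor IkB alpha is destroyed and NF-kB dimers enter the nucleus. NF-kB then turns on chemokines, adhesion molecules and survival genes, together with its own inhibitors Nfkbia and Tnfaip3, whose transcripts are therefore a common readout of the pathway.

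Every array had been scaled to a trimmed mean of 150, and array medians lay between 61 and 80.4. The ratio of the 3' to the 5' Gapdh control probe sets at 120 min was 0.857 and 0.777 in KO and 0.891 and 0.723 in WT. Against the label lymph node, the median intensity of 18 B cell markers was 131 to 194 in KO and 82.8 to 88 in WT at 120 min, and that of 17 T cell markers was 72.2 to 84.5 in KO and 50.1 to 58.1 in WT. Markers of salivary gland, which the label does not name, had a median of 7680 to 9010 in KO and 6610 to 7720 in WT over 14 genes. Summed skeletal muscle markers ranged from 1655 to 15011 over the 14 arrays and were 1655 and 4794 in KO against 5091 and 5154 in WT at 120 min. The 3 arrays with the lowest mean correlation to the others were KO 30 min A (0.908), WT untreated A (0.925) and KO 120 min A (0.929). The probe set of Atm read 37.3 and 13 in KO and 55.9 and 36.1 in WT at 120 min, a level near the array's floor that gives no check of the genotype (log2 difference -0.54 ± 0.40 SE, limma adjusted p = 0.866).

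At 120 min NF-kB targets had the largest share of called members among the gene lists, all of them lower in KO. The lists were chosen with earlier results of these data known, so that share is no independent support. Immediate-early genes had a similar share below 0 (85.7%, against 78.8% of NF-kB targets). Differences are given as KO minus WT of log2(intensity + 32) after quantile normalization, with the standard error (SE) from limma, and a probe set was called at a Benjamini-Hochberg adjusted p under 0.05 over the 8938 probe sets tested. Of these, 23 were called (0.257%), 21 lower in KO (0.235%) and 2 higher in KO (0.0224%), and they stood for 20 genes and 1 probe set without a gene name. The 21 that were lower differed by 2.23-fold to 15.8-fold on the scale with 32 added, which understates the fold of dim genes, and on each of them both KO arrays lay below both WT arrays. At an unadjusted p under 0.05 there were 307 higher (3.43%) and 334 lower (3.74%) probe sets, together 7.17% of those tested. The count was 11 without KO 120 min A, 49 without KO 120 min B, 16 without WT 120 min A, 9 without WT 120 min B and 13 without the 3 arrays of lowest correlation, and 10 of the 13 were among the 23.

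Of 49 listed NF-kB targets, 45 were on the array and 33 passed the filter on low values. Of these 33, 11 were lower in KO (33.3%) and 0 were higher, beside 0.235% and 0.0224% of all probe sets tested. The list's median difference was -0.75, with 26 of 33 members below 0, against a median of 0.00 and 50.5% below 0 over all tested probe sets. In 23 of the 33 both KO values were below both WT values (69.7%), a pattern found in 20.9% of all probe sets tested. Without the 3 arrays of lowest correlation 6 of the 11 calls remained (Cxcl1, Tnfaip3, Nfkbia, Tnfaip2, Icam1 and Cd14), and between 5 and 8 remained when 1 of the 4 arrays at 120 min was left out (8 without KO B, 6 without KO A, 6 without WT A and 5 without WT B). Nfkbia, Tnfaip3, Cxcl1 and Icam1 stayed called in each of those 4 fits. When the spread was estimated from the 4 arrays at 120 min alone, 2 of the 11 calls remained, Tnfaip3 and Nfkbia.

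**Figure D1:**
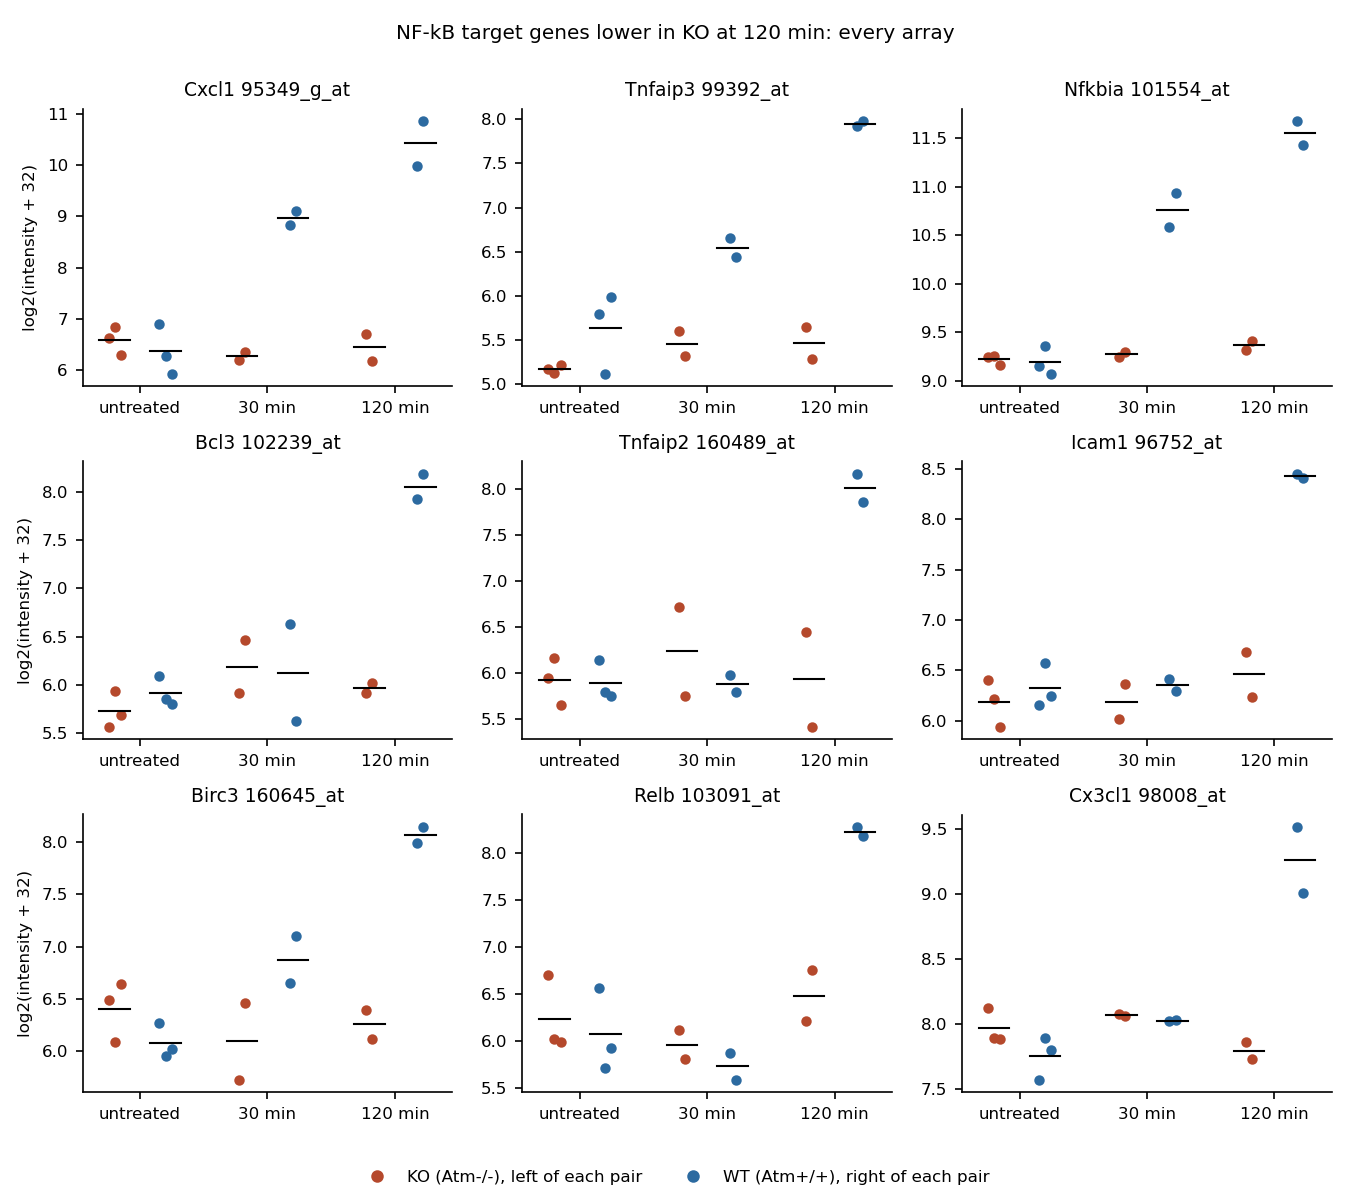
Log2(deposited intensity + 32) of 9 NF-kB targets on every array, KO left and WT right within untreated, 30 min and 120 min; points are single arrays and bars are group means. At 120 min both WT arrays stand above both KO arrays in all 9 panels, and Nfkbia lies at 606.7 and 647.2 in KO against 3247.3 and 2735.8 in WT.

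The inhibitors that NF-kB induces as its own brake were lower in KO. Nfkbia, which encodes IkB alpha, had an intensity of 606.7 and 647.2 in KO and 3247.3 and 2735.8 in WT. Untreated arrays lay at 574.1, 579.5 and 542.3 in KO and at 536.8, 622 and 505.7 in WT. The KO arrays at 120 min thus stayed near the untreated level of both genotypes while the WT arrays stood far above it. Its difference of -2.24 ± 0.17 (adjusted p = 0.00011) had the smallest p of the comparison, and a second Nfkbia probe set differed by -2.14 ± 0.21 (adjusted p = 0.000504). Tnfaip3, which encodes the ubiquitin-editing inhibitor A20, read 18.1 and 7.2 in KO and 210.7 and 220.2 in WT, with a difference of -2.48 ± 0.26 (adjusted p = 0.000601). Both KO values of Tnfaip3 lay below the 40th percentile of their arrays (47 and 46.7), so its fold depends on the added 32. The Tnfaip3 probe set passed the filter on low values only through the WT arrays at 120 min and at 30 min (69 and 54.7). It was thus tested, and counted in the list, because irradiated WT was above the filter. Bcl3, an IkB-like partner of the p50 and p52 subunits, read 28.4 and 32.7 in KO and 210.4 and 258 in WT (-2.10 ± 0.29, adjusted p = 0.0075).

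Among the NF-kB subunits themselves, Relb, the transcription partner of the alternative pathway, was lower, at 41.9 and 75.6 in KO and 277.4 and 257.4 in WT (-1.75 ± 0.30, adjusted p = 0.0317). That call was lost in 6 of 14 fits that left out 1 array. Nfkb2 differed by -0.72 ± 0.31 (adjusted p = 0.64) and Rela, the p65 subunit, by -0.69 ± 0.26 (adjusted p = 0.531), and neither passed. The upstream machinery of the pathway, a separate list of 13 tested kinases, adaptors and receptors, had 0 called members and a median of -0.13. Over all probe sets only 0.257% were called. Of the 13, 10 lay below 0 (76.9%, against 50.5% of all probe sets) and 3 were separated downward (23.1%, against 20.9%). The largest difference of this list was in Tank, an adaptor of the kinase Tbk1, at 119.2 and 133.1 in KO and 238.4 and 185.1 in WT (-0.60 ± 0.20, adjusted p = 0.426). Ikbkg differed by -0.18 ± 0.24 (adjusted p = 0.948).

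The secreted and surface products of the pathway included the largest difference of the comparison. Cxcl1, a chemokine that draws neutrophils, read 72.2 and 40.7 in KO and 987.3 and 1828.6 in WT, and its second probe set read 48.7 and 54 in KO and 931.3 and 1274.8 in WT. Untreated arrays of the first probe set lay at 66.2, 82.6 and 46.2 in KO and at 87.7, 45 and 28.8 in WT, so only WT stood above the untreated range at 120 min. The differences were -3.98 ± 0.35 (adjusted p = 0.000195) and -3.73 ± 0.31 (adjusted p = 0.000145). Icam1, the adhesion molecule that lets leukocytes bind vessel walls, read 71 and 43.2 in KO and 317.5 and 308.8 in WT (-1.97 ± 0.24, adjusted p = 0.00278). Cd14, the co-receptor for bacterial lipopolysaccharide, read 305.1 and 286.8 in KO and 1208.9 and 1232.2 in WT (-1.89 ± 0.26, adjusted p = 0.00622). Cd14 is also on the list of 17 tested macrophage and monocyte markers. It was the 1 called member (5.88%, beside 0.235% called lower of all probe sets). The median of these markers was 0.35, with a summed level of 6851 to 8022 in KO and 7319 to 7450 in WT. The part of these cells in the Cd14 difference was not tested.

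Cx3cl1, a membrane-bound chemokine, read 200.3 and 179.9 in KO and 699.1 and 483.3 in WT (-1.43 ± 0.19, adjusted p = 0.00509). A second Cx3cl1 probe set differed by 0.10 (adjusted p = 0.981), so the 2 probe sets of this gene disagree. Csf1, the macrophage growth factor, and Cxcl2, another neutrophil chemokine, pointed the same way without passing, at -1.60 ± 0.35 (adjusted p = 0.115) and -1.37 ± 0.34 (adjusted p = 0.174). Csf1 read 130 and 163.7 in KO and 541.2 and 506.9 in WT.

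Birc3, Tnfaip2 and Ier3 formed the last group. Birc3, the ubiquitin ligase cIAP2 that restrains apoptosis, read 52.2 and 37.6 in KO and 222.2 and 250.6 in WT (-1.82 ± 0.29, adjusted p = 0.0185). It was the only called member among 23 tested apoptosis regulators (4.35%, beside 0.235% called lower of all probe sets), a list with a median of 0.00. The Birc3 call was lost with an offset of 16, with only the groups compared, with the replicate block and with the muscle covariate. It was also lost without the 3 arrays of lowest correlation and without any 1 of the 4 arrays at 120 min. The Birc3 difference lay between -1.95 and -1.69 when 1 array was left out. Tnfaip2, a gene first found through its induction by TNF, read 55.6 and 10.7 in KO and 255.3 and 200.2 in WT (-2.07 ± 0.32, adjusted p = 0.0142), with the 2 KO arrays apart from each other and both below WT. Ier3, a stress-induced immediate-early gene, read 336.7 and 289 in KO and 840.5 and 766.9 in WT (-1.22 ± 0.19, adjusted p = 0.0175). The Ier3 call was lost with only the groups compared and with the replicate block, and that of Tnfaip2 with only the groups compared. The Ier3 call was also lost without the 3 arrays of lowest correlation and without any 1 of the 4 arrays at 120 min. That of Tnfaip2 was also lost without WT 120 min A, without WT 120 min B and without KO 120 min B. When 1 array was left out, the difference lay between -1.32 and -1.12 for Ier3 and between -2.59 and -1.57 for Tnfaip2.

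Of the 33 NF-kB targets 7 lay above 0, and in 3 of them (Cflar, Ltb and Ccl5) both KO values exceeded both WT values (9.09%, beside 20.6% of all probe sets). The largest positive difference was that of Saa3, an acute-phase protein, which read 203.2 and 9 in KO and 34.5 and 10.2 in WT (0.82 ± 0.65, adjusted p = 0.881), with groups that overlap. Bcl2l1, an anti-apoptotic relative of Bcl2, differed by -0.06 ± 0.24 and Vcam1, an adhesion molecule of vessel walls, by 0.26 ± 0.21. Ltb, the lymphotoxin beta of lymphocytes, and Ccl5, a chemokine of T cells, had differences of 0.63 ± 0.23 and 0.66 ± 0.32. None of these 4 passed (adjusted p between 0.515 and 0.987), and Cflar, an inhibitor of caspase 8, at 0.42 ± 0.22 did not either (0.753). In bulk tissue, fewer cells of a type and less RNA per cell cannot be told apart.

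Promoter windows of the NF-kB targets that were lower are shown to let the sequence be read beside the values. RefSeq promoter windows of GRCm38.p6, from 250 bases before to 50 bases after each start, were found for 9 of the 11 genes (10 windows), with none read for Relb and Cd14. Capitals mark matches, on either strand, to the pattern GGGNNTTCC or to a looser pattern (GGG, any 5 bases, CC), which resemble the binding site of NF-kB and can overlap each other. The genes with the 4 largest differences are printed, as Cxcl1 (chr5:90890995-90891294, plus strand), Tnfaip3 (chr10:19015361-19015660, minus strand, the first of its 2 windows), Nfkbia (chr12:55492598-55492897, minus strand) and Bcl3 (chr7:19822706-19823005, minus strand), each 5′ to 3′ in the direction of transcription.
Cxcl1: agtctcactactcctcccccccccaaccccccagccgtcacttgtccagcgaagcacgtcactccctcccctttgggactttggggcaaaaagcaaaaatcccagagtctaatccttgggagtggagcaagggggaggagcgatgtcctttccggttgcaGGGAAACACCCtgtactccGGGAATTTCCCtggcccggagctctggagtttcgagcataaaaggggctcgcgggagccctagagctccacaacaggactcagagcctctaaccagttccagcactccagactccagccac
Tnfaip3: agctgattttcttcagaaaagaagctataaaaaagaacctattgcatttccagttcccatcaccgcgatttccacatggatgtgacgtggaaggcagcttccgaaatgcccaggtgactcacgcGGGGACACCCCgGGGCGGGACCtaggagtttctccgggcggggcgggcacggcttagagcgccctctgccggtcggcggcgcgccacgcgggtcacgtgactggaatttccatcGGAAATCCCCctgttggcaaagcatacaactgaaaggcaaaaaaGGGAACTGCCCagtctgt
Nfkbia: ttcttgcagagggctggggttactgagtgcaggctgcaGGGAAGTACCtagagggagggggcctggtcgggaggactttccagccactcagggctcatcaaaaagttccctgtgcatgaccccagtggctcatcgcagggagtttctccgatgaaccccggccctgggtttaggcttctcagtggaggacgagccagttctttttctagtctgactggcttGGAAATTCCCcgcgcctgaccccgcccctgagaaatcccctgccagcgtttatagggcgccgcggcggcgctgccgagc
Bcl3: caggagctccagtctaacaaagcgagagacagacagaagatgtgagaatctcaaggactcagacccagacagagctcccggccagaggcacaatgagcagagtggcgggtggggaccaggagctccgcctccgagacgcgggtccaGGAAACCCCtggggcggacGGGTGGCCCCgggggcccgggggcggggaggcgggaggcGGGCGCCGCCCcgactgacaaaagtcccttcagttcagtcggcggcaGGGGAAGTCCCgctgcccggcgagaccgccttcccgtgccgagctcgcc

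In the Cxcl1 window the letters GGGAATTTCC begin 71 bases before the start, and a second match, GGGAAACACC, begins 90 bases before it. The Nfkbia window holds GGAAATTCCC, a match on the opposite strand, 29 bases before the start. GGGNNTTCC occurred in 2 of the 9 genes (Tnfaip3 and Bcl3), and in 5.8% of all 32851 promoter windows of this length. The looser pattern occurred in 8 of the 9 genes, and in 50.8% of all windows, so a match to it is common in any promoter. Cx3cl1 was the gene whose window held neither pattern. A match describes letters in a window and is not a measured binding site.

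Beyond the NF-kB list, Dusp1, which encodes a phosphatase that switches off MAP kinases, was lower, at 154.2 and 148.8 in KO and 504.6 and 575.3 in WT (-1.60 ± 0.20, adjusted p = 0.0037). Both KO arrays were also below all 3 untreated KO arrays (251.9, 207.7 and 231.3). Dusp8, of the same phosphatase family, was at the dim end, with 16.7 and 1.5 in KO and 65.8 and 92.3 in WT (-1.51 ± 0.24, adjusted p = 0.0196), and its second probe set differed by -0.85 (adjusted p = 0.652). The Dusp8 probe set passed the filter on low values through both WT arrays at 120 min and KO 30 min A, so it was tested because WT was above the filter. Its call was lost without WT 120 min A, without WT 120 min B, without KO 120 min B and under 5 other settings, with adjusted p-values up to 0.245 when 1 array was left out. Cebpd, a transcription factor of acute inflammation, read 289.3 and 271.8 in KO and 684 and 798.2 in WT (-1.26 ± 0.18, adjusted p = 0.0088). Leaving out WT 120 min B ended the calls of Cebpd and Dusp1, and leaving out KO 120 min A also ended that of Cebpd. D17H6S56E-5 read 175.2 and 170.5 in KO and 798 and 813.7 in WT (-2.0 ± 0.23, adjusted p = 0.00169).

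A further 3 genes were called lower, and they are named here after their values were seen. The growth factor Tgfb2 read 126.3 and 117.3 in KO and 349.9 and 481.3 in WT (-1.50 ± 0.25, adjusted p = 0.0259). Leaving out any 1 of the 4 arrays at 120 min ended the Tgfb2 call (adjusted p up to 0.377), as did the replicate block and the muscle covariate. Hp, the haemoglobin-binding acute-phase protein haptoglobin, read 451.5 and 458 in KO and 1009.8 and 1180.2 in WT (-1.16 ± 0.21, adjusted p = 0.0465), a call lost in 9 of 14 fits that left out 1 array. Rasal1, a GTPase-activating protein for Ras, read 135 and 139.1 in KO and 312 and 399.5 in WT (-1.16 ± 0.18, adjusted p = 0.0162), a call lost without KO 120 min A, KO 120 min B or WT 120 min B. A probe set with no gene name in the annotation read 11.9 and 6.7 in KO and 205.1 and 86.1 in WT and differed by -2.01 ± 0.34 (adjusted p = 0.0254).

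**Figure D2:**
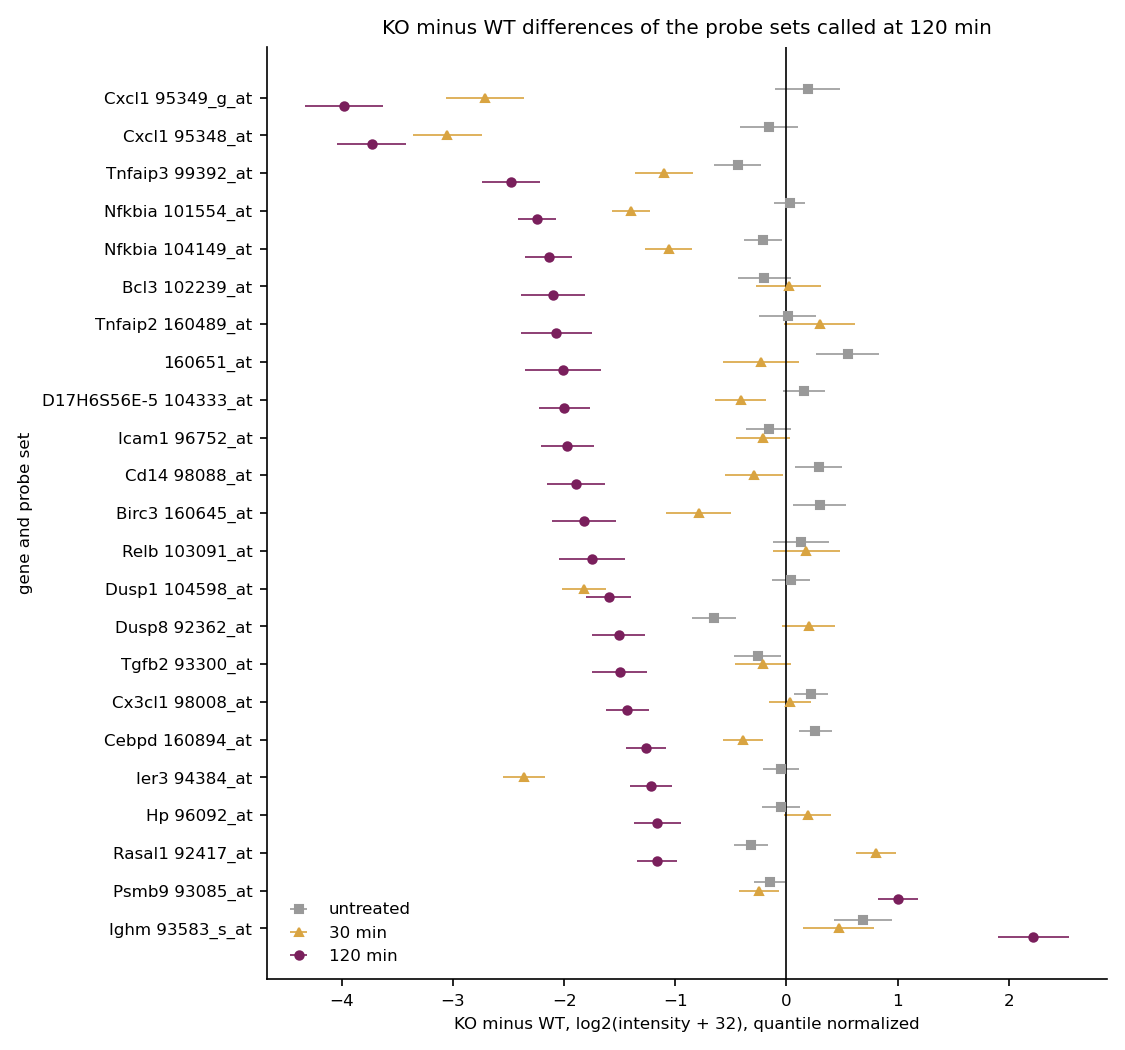
KO minus WT difference in log2(intensity + 32), with its standard error as the bar, of the 23 probe sets called at 120 min, shown for untreated arrays (squares), 30 min (triangles) and 120 min (circles). The 21 lower probe sets lie between -3.98 and -1.16 at 120 min and between -0.65 and 0.55 without treatment.

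The same 21 probe sets differed less between the genotypes without radiation than at 120 min. They were picked by their difference at 120 min, so a smaller one elsewhere was largely fixed in advance. Their untreated KO minus WT differences ranged between -0.65 and 0.55 with a median of 0.01, against a median of -1.89 at 120 min. The lowest was that of Dusp8, which read 6.8, 4.6 and 16.8 in KO and 42.5, 25.1 and 31.7 in WT. That untreated difference was -0.65 ± 0.20 (limma adjusted p = 0.717), so a gap in Dusp8 was present without radiation but did not pass. Limma called 0 of 8938 probe sets between untreated KO and WT (490 at an unadjusted p under 0.05, 5.48%). Set against untreated arrays of their own genotype, the 21 differed by -1.01 to 0.38 in KO. Limma called 0 of them in KO, but it also called 0 of all 8938 probe sets there (7.22% at an unadjusted p under 0.05). In WT the 21 differed by 0.84 to 4.05, and 20 of 21 were called as higher. Over all probe sets in WT, 0.47% were called higher and 0.0448% lower (8.66% at an unadjusted p under 0.05). Both counts use the same 120 min arrays as the genotype comparison and are no separate evidence. Whether the difference at 120 min exceeded the untreated one was tested directly, and 12 probe sets passed (0.134%; 6.99% at an unadjusted p under 0.05), all lower and all among the 21. They were both probe sets of Cxcl1 and of Nfkbia, 1 each of Tnfaip3, Icam1, Cd14, Cx3cl1, Dusp1, Cebpd and D17H6S56E-5, and the one without a gene name. That count was 5 without the 3 arrays of lowest correlation, 0 with summed muscle markers as a covariate, and between 3 and 18 when 1 array was left out.

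At 30 min, on other arrays, 9 probe sets were called (0.101%, with 6.7% at an unadjusted p under 0.05; 121 without KO 30 min B and 5 without any 1 of the other 3 arrays at 30 min), 8 lower in KO (0.0895%) and 1 higher, the growth factor receptor Met (1.21 ± 0.19, adjusted p = 0.0294). Among the 8, 5 were also called lower at 120 min, 2 for Cxcl1 and 1 each for Nfkbia, Dusp1 and Ier3, which is 5 of 8 at 30 min and 5 of 21 at 120 min. The other 3 were the immediate-early genes Fos, Egr1 and Ier2. Fos, a subunit of the AP-1 transcription factor, read 49.6 and 40.3 in KO and 58.7 and 81.7 in WT at 120 min (-0.47 ± 0.23, adjusted p = 0.727), against a difference of -2.60 ± 0.23 at 30 min (adjusted p = 0.000243). Egr1, a zinc finger transcription factor, differed by -0.32 ± 0.17 at 120 min (adjusted p = 0.767) and by -1.15 ± 0.17 at 30 min (adjusted p = 0.0192). At 30 min Fos read 66.5 and 24.6 in KO and 416.1 and 416 in WT, and Egr1 read 181.3 and 136.5 in KO and 367.5 and 415.4 in WT. The change of the Fos difference between the times, 2.13 ± 0.32, did not pass over all probe sets (adjusted p = 0.0898).

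The change of the difference between 30 and 120 min was called for 1 probe set, that of Rasal1 (0.0112% of those tested, with 7.59% at an unadjusted p under 0.05). At 30 min it read 280.8 and 265.5 in KO and 143.9 and 138.9 in WT, the opposite order to 120 min. The change of the difference was -1.97 ± 0.26 (adjusted p = 0.0373). When 1 array was left out, 0 probe sets were called in 12 of 14 fits, 3 without KO untreated B and 49 without KO 120 min B.

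Of 28 tested immediate-early genes, 3 were called lower (Dusp1, Cebpd and Ier3) and 0 higher. The lower calls are 10.7% of the list, beside 0.235% of all probe sets. The median was -0.58, with 24 of 28 below 0 (85.7%, against 50.5% of all) and 20 separated downward (71.4%, against 20.9%). Junb, another AP-1 subunit, read 114.5 and 171 in KO and 456.4 and 340.9 in WT, and Klf6, a zinc finger factor of early stress responses, read 137.1 and 148.7 in KO and 353.7 and 419.4 in WT. Both pairs were separated, with differences of -1.27 ± 0.29 (adjusted p = 0.136) and -1.22 ± 0.25 (adjusted p = 0.0802) that did not pass.

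**Figure D3:**
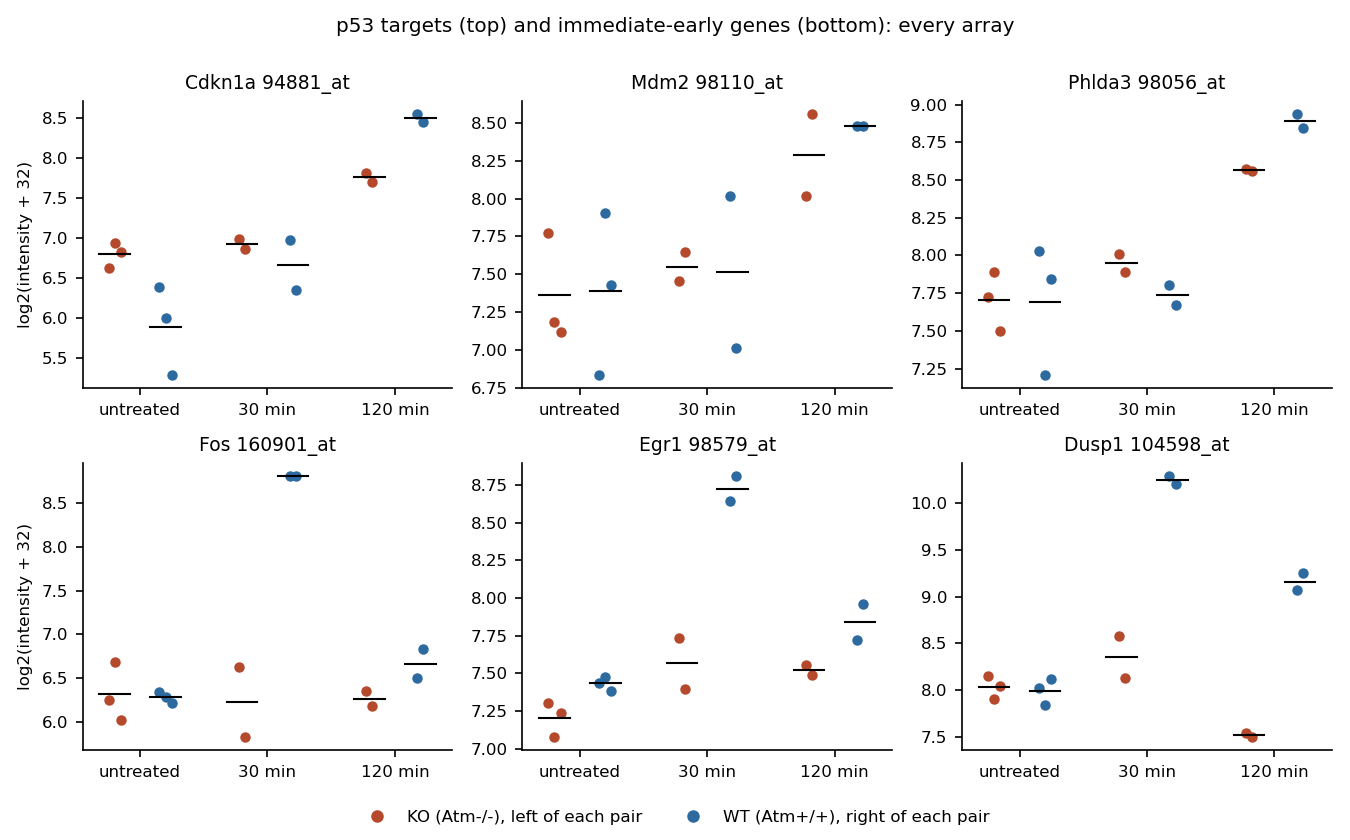
Log2(deposited intensity + 32) of 3 p53 targets (top) and 3 immediate-early genes (bottom) on every array, KO left and WT right within each condition, with bars at group means. Cdkn1a at 120 min lies at 194.1 and 177.5 in KO against 342.9 and 318.1 in WT, and Fos at 30 min lies at 66.5 and 24.6 in KO against 416.1 and 416 in WT.

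Targets of p53 did not pass in either direction. Of 24 tested, 0 were called, with a median of -0.34, 18 of 24 below 0 and 14 with both KO values below both WT values (58.3%, against 20.9% of all probe sets). The largest difference was that of Cdkn1a, which encodes the cell cycle inhibitor p21, at 194.1 and 177.5 in KO and 342.9 and 318.1 in WT. Its difference was -0.71 ± 0.28 (95% interval -1.33 to -0.09, adjusted p = 0.588), and a second probe set gave -0.80. Untreated levels of Cdkn1a were 67.2, 91.5 and 81.7 in KO and 52, 32.3 and 7.1 in WT, so the KO arrays at 120 min lay above all untreated KO arrays. The difference of 120 min minus untreated was 0.99 in KO, which did not pass (adjusted p = 0.487), and 2.59 in WT (adjusted p = 0.00044).

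Other p53 targets lay closer together. Mdm2 read 227.6 and 344.1 in KO and 325.3 and 323.9 in WT (-0.16 ± 0.38, adjusted p = 0.973), and Phlda3, an Akt inhibitor that p53 induces, read 348.6 and 344.4 in KO and 457.4 and 428.7 in WT (-0.28 ± 0.25, adjusted p = 0.90). The differences of 120 min minus untreated were 0.94 in KO and 1.07 in WT for Mdm2, and 0.87 in KO and 1.18 in WT for Phlda3. Of these 4 differences the one of Phlda3 in WT passed (adjusted p = 0.043). Gadd45a, a stress gene of growth arrest, differed by -0.63 ± 0.35 (adjusted p = 0.774), and Tap1, a peptide transporter that p53 and interferon both induce, by 0.68 ± 0.26 (adjusted p = 0.551). The median SE over all tested probe sets was 0.254.

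**Figure D4:**
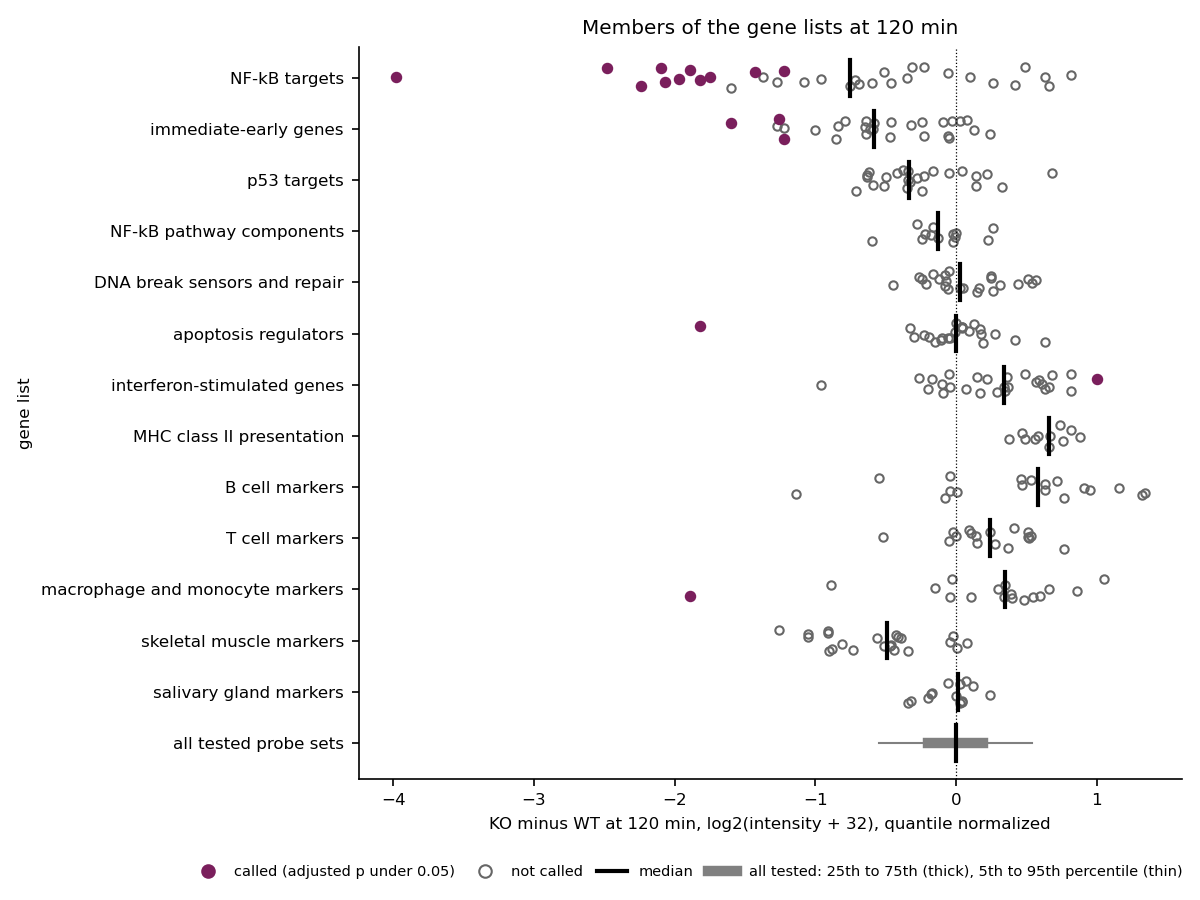
KO minus WT difference at 120 min in log2(intensity + 32) of each tested member of 13 gene lists (filled, adjusted p under 0.05; open, not called), with list medians as black bars; the bottom row shows all 8938 tested probe sets. NF-kB targets spread down to -3.98 with a median of -0.75, and MHC class II genes all lie above 0 with a median of 0.66.

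In the opposite direction 2 probe sets were higher in KO. Psmb9, a subunit of the immunoproteasome that cuts peptides for antigen display, read 310.3 and 290.2 in KO and 148.7 and 118.9 in WT (1.0 ± 0.18, adjusted p = 0.0351). Its untreated values were 206.2, 235.2 and 185.7 in KO and 245.7, 226.4 and 234.2 in WT, so at 120 min the KO arrays lay above and the WT arrays below both untreated groups. The call was lost in 11 of 14 fits that left out 1 array. One Ighm probe set, for the heavy chain of IgM, read 3300.8 and 2298 in KO and 643.8 and 462.9 in WT (2.22 ± 0.32, adjusted p = 0.00952). Untreated, it read 1502.7, 1861 and 1207.6 in KO and 660.4, 1295.7 and 999.4 in WT (0.69 ± 0.26, adjusted p = 0.863). The change of its difference from untreated, 1.53 ± 0.42, did not pass (adjusted p = 0.375). Of 11 tested Ighm probe sets, this was the one that was called, and the one with the highest mean over all 14 arrays differed by -1.14 (adjusted p = 0.397), so the probe sets of Ighm disagree. That brightest probe set also differed by -1.14 ± 0.30 between untreated KO and WT. Without KO 120 min A, 0 probe sets were called higher, and without KO 120 min B, 35 were.

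The higher probe sets with the smallest p-values that did not pass included several B cell and leukocyte genes. Ptprc, the CD45 antigen of all leukocytes, read 195.6 and 165.2 in KO and 70.7 and 61.7 in WT (1.06 ± 0.20, adjusted p = 0.057). Cd79b, a signalling chain of the B cell receptor, read 520.7 and 330.7 in KO and 168 and 127.5 in WT (1.34 ± 0.30, adjusted p = 0.115). The immunoglobulin variable segments Ighv14-2 and Igkv1-133 differed by 1.13 ± 0.21 (adjusted p = 0.0522) and 1.73 ± 0.33 (adjusted p = 0.0635). Plac8, Tyrobp, the myeloid and NK cell adaptor DAP12, and Defa35, a defensin, differed by 1.11 ± 0.24, 0.97 ± 0.22 and 0.86 ± 0.19 (adjusted p between 0.115 and 0.129).

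MHC class II genes, which display peptides on B cells, dendritic cells and macrophages, were all 11 above 0 with a median of 0.66, and in 10 of 11 both KO arrays exceeded both WT arrays, beside 20.6% of all tested probe sets, but 0 were called. Cd74, the invariant chain, read 3163.6 and 2763.7 in KO and 1645.2 and 1582.7 in WT (0.76 ± 0.18, adjusted p = 0.139). H2-Aa, the alpha chain of I-A, read 2191.4 and 1656.3 in KO and 1124.3 and 939.5 in WT (0.82 ± 0.24, adjusted p = 0.344). H2-DMb1, part of the peptide loader, differed by 0.88 ± 0.28 and Ciita, the master regulator of the class, by 0.74 ± 0.26 (adjusted p = 0.389 and 0.50).

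B cell markers had a median of 0.58 over 18 tested, with 13 above 0 (72.2%, against 49.5% of all probe sets), 11 of 18 separated upward (61.1%, against 20.6%) and 0 called. Cd79a, the partner of Cd79b, read 852 and 715.7 in KO and 384.6 and 233.4 in WT (1.32 ± 0.31, adjusted p = 0.151). Ms4a1, which encodes CD20, read 629.3 and 365.7 in KO and 245.5 and 162.2 in WT (1.16 ± 0.29, adjusted p = 0.206). The summed level of the 18 markers was 7747 to 8465 in KO and 6968 to 7262 in WT, and none of the 18 was listed at 0 on these 4 arrays. Untreated, the B cell and class II medians were -0.09 and -0.11, and across the 14 arrays the 2 WT arrays at 120 min had the lowest median B cell level (82.8 and 88) and KO 120 min A the highest (194).

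**Figure D5:**
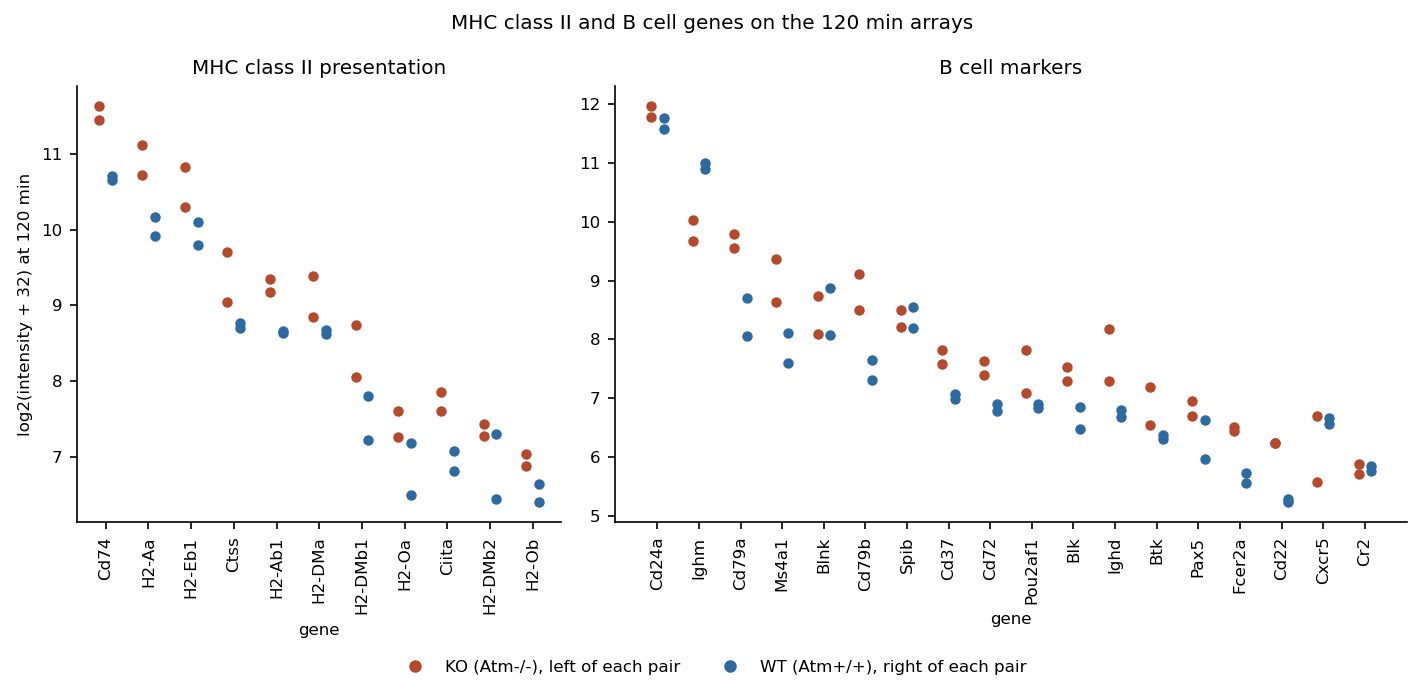
Log2(deposited intensity + 32) on the 4 arrays at 120 min of 11 MHC class II genes (left) and 18 B cell markers (right), KO left and WT right for each gene. KO points stand above WT points in most genes, with Ighm, shown by its probe set of highest mean, as an exception.

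The remaining immune lists had smaller medians. T cell markers had a median of 0.24 over 17 tested with 0 called, and their summed level was 1718 to 1770 in KO and 1331 to 1354 in WT. Of these 17, 14 lay above 0 (82.4%, against 49.5% of all probe sets). In 6 of them the values were separated upward (35.3%, against 20.6%) and in 1 downward. Cd4, the co-receptor of helper T cells, differed by 0.77 ± 0.30 and Cd3d, a chain of the T cell receptor complex, by 0.53 ± 0.19 (adjusted p = 0.57 and 0.477). Of 11 tested neutrophil markers, 8 lay above 0 (72.7%), 5 were separated upward (45.5%) and 1 downward. Among them S100a8, a calcium-binding protein of granulocytes, read 363.1 and 80.1 in KO and 50.2 and 22.1 in WT (1.61 ± 0.45, adjusted p = 0.276), a gap that rested mostly on KO 120 min A. Macrophage and monocyte markers pointed both ways, with 8 of 17 separated upward (47.1%, beside 20.6% of all probe sets) and 3 separated downward (17.6%, beside 20.9%). Of the 17, 1 was called, Cd14 (5.88%, beside 0.235% called lower of all probe sets). Fcgr1, a high-affinity antibody receptor of macrophages, read 125.6 and 90.8 in KO and 20.2 and 46.6 in WT (1.05 ± 0.25, adjusted p = 0.151), and Lgals3, the lectin galectin-3 of macrophages, read 157 and 127.2 in KO and 319.5 and 273.7 in WT (-0.89 ± 0.27, adjusted p = 0.37). The part of these cell types in the results above was not tested.

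Interferon-stimulated genes had 1 of 27 tested members called higher, Psmb9 (3.7%, beside 0.0224% of all probe sets), 0 called lower and a median of 0.34. In 15 of the 27 both KO values exceeded both WT values (55.6%, against 20.6% of all). Ifit1, an antiviral RNA-binding protein, read 121 and 105.8 in KO and 37.6 and 56.6 in WT (0.82 ± 0.20, adjusted p = 0.157). Irf1, a transcription factor that is on both the interferon and the NF-kB lists, went the other way at 297.9 and 273.2 in KO and 594.5 and 609.8 in WT (-0.96 ± 0.21, adjusted p = 0.115).

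Skeletal muscle markers had a median of -0.49 with 20 of 22 below 0 (90.9%, against 50.5% of all probe sets) and 0 called, and Acta1, muscle actin, read 176.3 and 1169.6 in KO and 1065.7 and 1305.4 in WT (-1.26 ± 0.78, adjusted p = 0.817), so that KO 120 min A alone stood apart. Without treatment the same list had a median of 1.38. Salivary gland markers had a median of 0.01 over 14 tested, and those of stroma and endothelium 0.02 over 28. DNA break sensors and repair genes had a median of 0.03 over 23 tested and mitosis genes one of 0.04 over 20, both with 0 called members. G1/S and replication genes (0.14 over 32), heat shock genes (-0.06 over 24), oxidative phosphorylation genes (0.05 over 56) and ribosomal protein genes (0.14 over 27) also had 0 called members. Of the 27 ribosomal protein genes, 22 lay above 0 (81.5%, against 49.5% of all probe sets). Both KO values exceeded both WT values in 15 of them (55.6%) and lay below in 2. Mitosis genes had 8 of 20 separated upward (40%) and 0 downward. G1/S genes had 10 of 32 separated upward (31.2%) and 4 downward. Over all probe sets the shares were 20.6% upward and 20.9% downward. Among glucocorticoid-responsive genes 2 of 23 were called lower (8.7%, beside 0.235% of all probe sets), Dusp1 and Cebpd, which the immediate-early list holds too. Their median was -0.29, with 12 of 23 separated downward (52.2%, against 20.9%).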

How the data were processed

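Lymph node RNA had been hybridised to 14 one-colour Affymetrix MG-U74Av2 arrays. The deposited values are linear intensity per probe set, scaled by the authors to a common target (read from the values, whose mean without the highest and lowest 2% is 150 on each array); the summary software and its settings are named neither in the labels nor in the file. Probe sets were named through the platform annotation: of 12488, 10855 had 1 gene, 396 several and 1237 none.

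The 66 control probe sets were left out, log2(intensity + 32) was quantile normalized, and a probe set was tested when above its array's 40th percentile on at least 2 arrays (8938 tested). Limma 3.58.1 in R 4.3.3 fitted 6 group means to all 14 arrays (8 residual degrees of freedom, 4.56 prior), with Benjamini-Hochberg adjustment over all tested probe sets. The script was tested on simulated data. Intensities in the text are the deposited ones; whether groups overlap was judged on normalized values. Where a listed gene had several probe sets, the brightest on average stood for it. The number of arrays limits the precision.

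Named genes are Atm, up to 12 called genes per direction with groups that do not overlap, filled to 10 by smallest p, and from each list the 2 to 4 members that differed most. Tgfb2, Hp, Rasal1, Mdm2, Phlda3, Fos, Egr1, Ier2, Met, Csf1, Cxcl2, Nfkb2, Rela, Ikbkg, Bcl2l1, Vcam1, Ltb, Ccl5, Cflar, Saa3, Lgals3 and the probe set without a gene name were named after their values were seen. The members and all gene lists were chosen with earlier results of these data known. Promoter sequences came from RefSeq (GRCm38.p6). Alternatives were another offset or a floor, no quantile normalization, other filters, only the groups compared, a replicate block, a trended and robust variance (statmod 1.5.0), array weights, a muscle covariate, each array left out in turn and, chosen after seeing the data, no 3 arrays of lowest correlation. Figures were drawn with matplotlib 3.10.9.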

Additional observations from a re-analysis of the deposited data

Results flagged for a closer look

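The KO minus WT difference itself differed between conditions, by limma's test of the difference of differences, for 12 probe sets between 120 min and untreated arrays and for 1 between 120 and 30 min. Between 120 min and untreated arrays the change in log2(intensity + 32) was -4.17 for Cxcl1, -2.27 for Nfkbia, -2.18 for Cd14, -2.16 for D17H6S56E-5, -2.04 for Tnfaip3, -1.81 for Icam1, -1.65 for Cx3cl1, -1.64 for Dusp1 and -1.52 for Cebpd, with adjusted p-values between 0.00179 and 0.0493. Between 120 and 30 min it was -1.97 for Rasal1 (adjusted p = 0.0373). The groups of 2 or 3 arrays are too small for a search for single outlying arrays.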

How the results depend on the processing

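The 5 counts (KO against WT at 120 min, that difference against untreated, untreated, 30 min, and 120 against 30 min) were 23, 12, 0, 9 and 1. At 120 min the count was 37 with an offset of 64, 4 with only the groups compared, 45 with a trended and robust variance, 63 with array weights and 13 without the 3 arrays that correlated least (added after seeing the data). Against untreated it was 20 with an offset of 64, 21 with array weights, 5 without those 3 arrays and 0 with the muscle covariate, and at 30 min it was 0 with only the groups compared, 5 with array weights and 4 without those 3 arrays. Against 30 min it was 2 with an offset of 64, a floor, the 60th percentile filter or the trended variance, and 0 with an offset of 16, only the groups compared, array weights, the muscle covariate or without those 3 arrays. The data do not show that the replicate letters pair the samples (the A minus B deviations of KO and WT at 120 min correlated at 0.084). A low correlation cannot exclude a pairing. With the replicate block the counts were 17, 5, 0, 6 and 0. Leaving out 1 array gave 9 to 49, 3 to 18, 0 to 7, 5 to 121 and 0 to 49. Fits without 1 of the 4 arrays at 120 min assume that the lone array varies like the other groups. The cause of these moves was not tested, apart from the smaller number of arrays in fits that left some out. Among genes named for a list, none of them called, the sign turned for Cox6a2 (0.10 with the muscle covariate), Mdm2 (0.01 with the muscle covariate, 0.12 without the 3 arrays, -0.44 to 0.12 without 1 array), Klra7 (-0.03 without the 3 arrays, -0.03 to 0.53 without 1 array), Acta1 (0.00 without the 3 arrays), Atp2a1 (0.11 without the 3 arrays, -2.22 to 0.11 without 1 array), Sfn (-1.34 to 0.09 without 1 array) and Pck1 (-0.06 to 1.04 without 1 array). Counting every probe set of a listed gene, 13 of 42 NF-kB, 0 of 12 MHC class II and 1 of 32 B cell probe sets were called. Over all tested probe sets the share called was 0.257%. Values under 32 are near the floor, and their folds depend on the offset.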

Other observations

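Several other gene groups carried differences in single members that did not pass. Igha, the heavy chain of IgA and a plasma cell product, read 768 and 523.9 in KO and 2294.6 and 2159 in WT (-1.77 ± 0.46, limma adjusted p = 0.223), and it was already lower in KO without treatment (-1.37). Glycam1, a mucin of lymph node vessels, differed by 1.24 ± 0.34 (adjusted p = 0.279) and Acta2, smooth muscle actin, by -1.03 ± 0.43. Lcn2, the iron-sequestering lipocalin that is on the NF-kB and neutrophil lists, differed by -1.08 ± 0.36 (adjusted p = 0.447), opposite in sign to S100a8. Tk1, thymidine kinase of replicating cells, differed by -1.09, and Cdk1, the mitotic kinase, by 0.80. The heat shock genes Hspa1b and Hspa1a differed by -0.80 and -0.63.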
